A study of Canis lupus familiaris with 6 samples.

Results

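The set described here holds the genes for collagen chains, laminin chains, integrin chains, matrix metalloproteinases (MMP) and ADAMTS proteases, the enzymes with a disintegrin domain and thrombospondin repeats. A gene entered when its symbol matched COL with digits and A, LAMA, LAMB or LAMC with a digit, ITGA or ITGB with a digit, or MMP or ADAMTS with a digit, which selected 120 of the 34981 gene names in the files and used no measured value. The set comprised 43 collagen, 12 laminin, 20 integrin, 22 MMP and 19 ADAMTS genes. A further 4 genes matched by name only (ITGB1BP1, ITGB1BP2, ITGB3BP and MMP24OS), since they encode binding partners of integrin chains or lie beside MMP24, and they are counted in the totals but placed in no family. The spelling of the rule does not reach every chain: ITGAV, ITGAL, ITGAM and ITGAX lack a digit and were read as part of a list of partner genes.

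Neural retina of dogs was profiled by single-cell RNA sequencing (10x Genomics 3′ v3.1) in 3 experiments, named LG5, RC726 and RC724. In each experiment a 5 mm punch was taken above the subretinal graft and a control punch from retina without graft, 3 days after human retinal organoid fragments were injected under the retina. The organoids came from WA09 CRX-tdTomato, a single human embryonic stem cell line carrying a red reporter of the photoreceptor gene CRX. The dogs had normal healthy retinas with the genotype given as normal or wild-type, and all received immunosuppression, so both groups share the drugs and the retina, and differ in whether the graft lay beneath the punch. Ages were not given in the sources used here, and whether the 3 experiments used separate dogs is not stated, so p-values measure the spread between these experiments. Punches were dissociated with trypsin and a neural tissue kit, and matrix-bound receptors were therefore read as RNA only.

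Collagens IV and XVIII, laminins and their receptors build the inner limiting membrane and the basement membranes of retinal vessels, whereas the fibrillar collagens II, V and XI, and collagen IX bound to their fibrils, are known from the vitreous and its border. Integrins are paired alpha and beta chains that tie cells to this matrix. MMP and ADAMTS enzymes cut it, and the TIMP proteins inhibit them; in the retina Müller glia, the radial glia that span its depth, are the cells known for contact with the inner limiting membrane.

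The kept libraries held 8039 to 22427 barcodes and 31079427 to 57083517 unique molecular identifiers (UMIs, the counted RNA molecules). Barcodes were placed in classes from marker genes, none of which belongs to the set, and the classes are written with "-like". The 6 classes with at least 20 barcodes in every library were rod-like (35225 barcodes in all), Müller glia-like (15455), bipolar-like (10885), cone-like (3369), amacrine-like (1183) and horizontal-like (439); 10.6% of the rod-like barcodes lay near the limit of their class. The neural retina label held: rod, cone, Müller glia, bipolar, amacrine and horizontal markers led their own classes, although the Müller glia-like class was also high in MFAP5 and PDGFRA, which are otherwise fibroblast markers. The fibroblast markers DCN and PI16 were not carried there, with 2.13% and 13.9% of their UMIs in that class. Fibroblasts and astrocytes had no class of their own, so any such cells could lie in another class or in none. The Müller glia-like class held 71.7% (ALDH1L1) to 95.2% (CD44) of the UMIs of the astrocyte markers, with GFAP at 84.9% and PAX2 at 71.9%. Astrocytes in that class could therefore not be told apart from Müller glia. Libraries shared 14 to 84 barcodes pairwise, at most 0.655% of the smaller one. The LG5 libraries stood apart: RNA from other cells was estimated at 17.6% of rod-like UMIs over the graft and 14.3% in control there, against 3.02% to 6.01% in the other experiments, so the genes whose calls ended without LG5 are named with their values without it. The 2 LG5 estimates are not directly comparable, since they rested on Müller glia markers over the graft and on bipolar markers in control.

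Of the 120 genes, 101 had a UMI in every library, while 16 stayed under 20 UMIs in every library. Those 16 included the collagenases MMP1, MMP8 and MMP13, the stromelysin MMP3, matrilysin MMP7 and COL10A1. In all, 88 genes had enough counts to be tested in at least 1 class, 8 in all 6 classes and 32 in none. The 8 were ITGB1, ITGA4, ITGB5, LAMC1, COL25A1, MMP16, ADAMTS18 and ITGB1BP1.

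Müller glia-like cells were the main source of the set in control retina. Of the 60 genes with at least 50 UMIs in every control library, 40 had their highest mean share of UMIs in Müller glia-like cells, 9 in bipolar-like, 7 in rod-like and 2 in vessel-like cells, a small class with endothelial or mural markers. The Müller glia-like class held 37.8% ± 10.5 (SD, n = 3) of all UMIs in control and the rod-like class 30.9% ± 9.98. A count of highest shares over all genes is not given here, so the 40 of 60 cannot be set against a background. In an edgeR comparison of classes within control libraries, 47 of 76 genes of the set were higher in Müller glia-like cells than in the mean of the other classes and 6 were lower, where 33.0% of all 16138 genes tested were higher and 23.8% lower. Rod-like cells had 10 higher and 23 lower, against 29.8% and 25.3% of all genes, so few were higher while the lower count was near the share of all genes. Bipolar-like cells had 14 higher and 24 lower (19.8% and 15.9% of all genes), cone-like cells 8 and 19 (18.9% and 17.1%), amacrine-like cells 23 and 9 (20.6% and 16.0%) and horizontal-like cells 6 and 6 (16.2% and 15.9%).

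**Figure D1:**
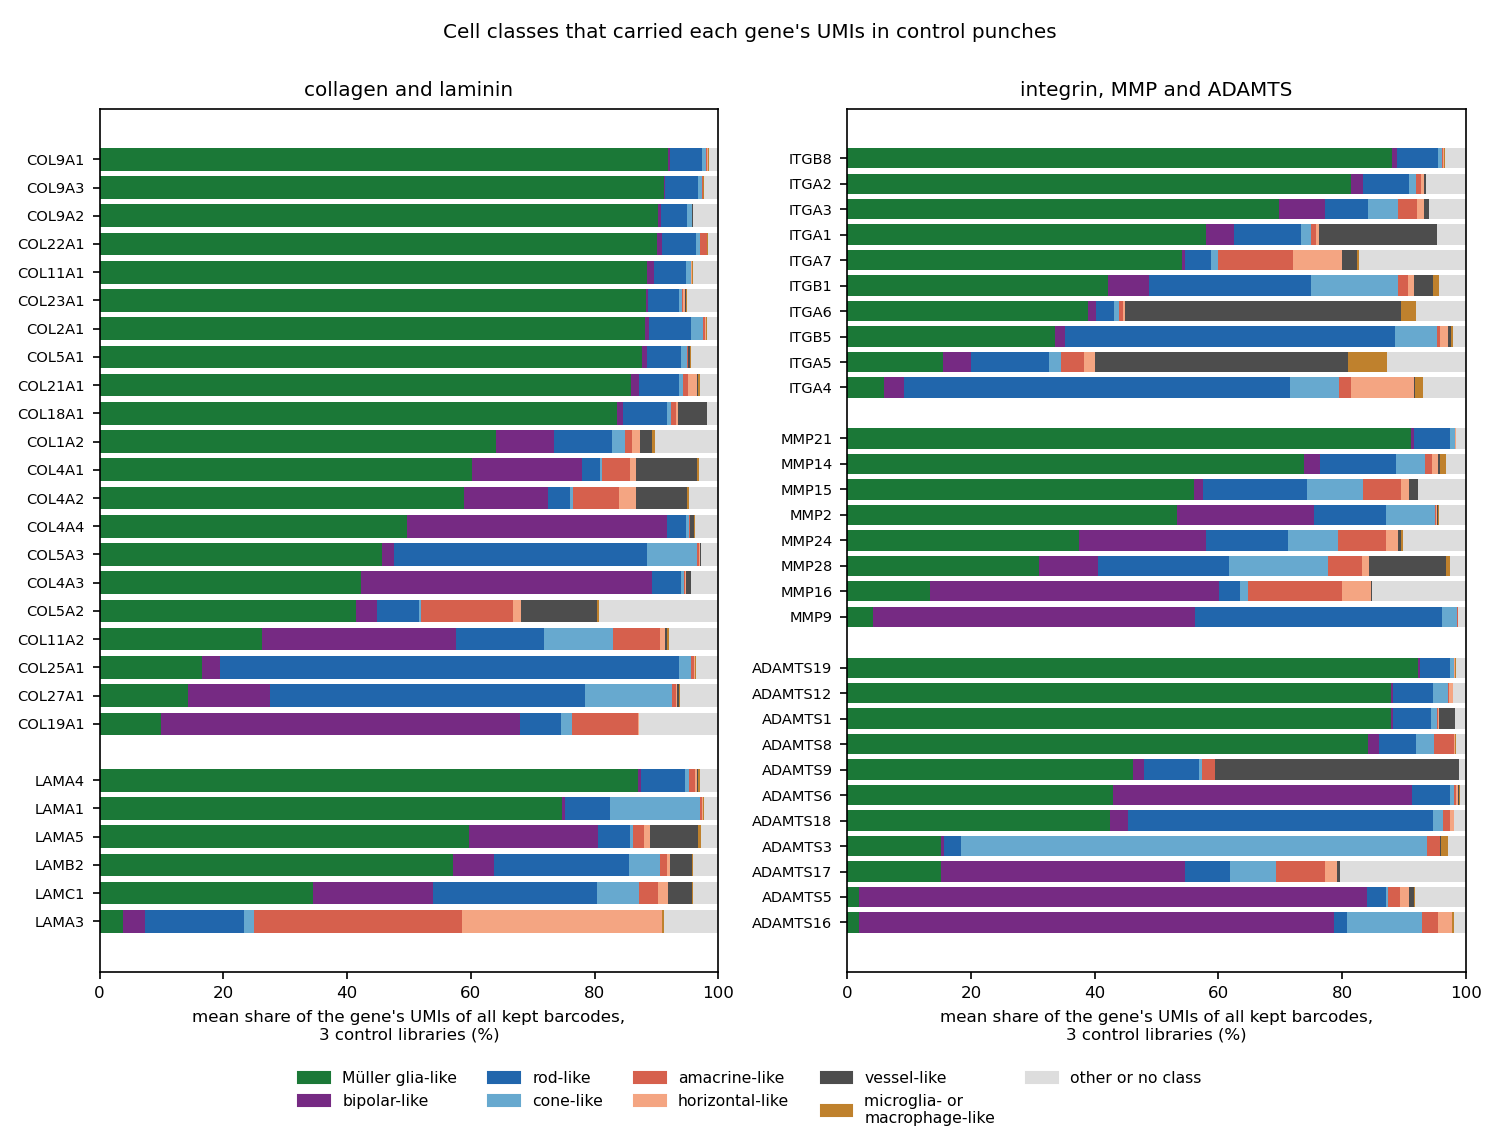
Mean share of each gene's UMIs (%, horizontal axis) carried by each cell class in the 3 control libraries, for the 56 collagen, laminin, integrin, MMP and ADAMTS genes with at least 50 UMIs in every control library. Müller glia-like cells have the greatest share for 38 of the 56 genes, and ADAMTS5, ADAMTS3, COL25A1 and LAMA3 stand apart in bipolar-like, cone-like, rod-like and amacrine- with horizontal-like cells.

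Among the collagens, 19 of 25 tested were higher in Müller glia-like cells. The 3 chains of collagen IX, which coats fibrils of collagen II, had nearly the same source: COL9A1 91.9%, COL9A2 90.3% and COL9A3 91.2% of their UMIs. COL2A1, the main fibril of vitreous and cartilage, had 88.1% ± 6.35 there and COL11A1, which sits inside that fibril, 88.5% ± 9.56. Within the class, COL5A1 was 6.84 ± 0.58 (SE) higher on the log2 scale than in the other classes (edgeR adjusted p = 1.01e-06), COL9A2 was 6.75 ± 0.394 higher (2.55e-08) and COL9A3 was 6.58 ± 0.503 higher (1.47e-07).

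Other collagens had other sources. COL4A3 and COL4A4, neighbours in the RefSeq annotation of the UU_Cfam_GSD_1.0 assembly and partners in the collagen IV network, divided their UMIs between the same 2 classes: COL4A3 had 47.1% ± 12.8 in bipolar-like and 42.2% in Müller glia-like cells, and COL4A4 had 42.0% and 49.7%. Against the other classes, bipolar-like cells were higher in COL4A4 by 4.98 ± 0.408 and in COL4A3 by 4.82 ± 0.422 on the log2 scale. The neighbouring pair COL4A1 and COL4A2, the chains found in most basement membranes, was higher in amacrine-like cells, COL4A2 by 2.55 ± 0.553 and COL4A1 by 2.51 ± 0.774. COL4A2 also passed in horizontal-like cells (1.82 ± 0.642), but not in the fit that adds vessel-like and microglia- or macrophage-like cells (1.20, adjusted p = 0.127). For amacrine-like cells the same fit kept COL4A2 (1.96 ± 0.488, edgeR adjusted p = 0.00369) but not COL4A1 (1.58 ± 0.677, 0.0775). In that fit vessel-like cells were higher in both, COL4A1 by 5.37 ± 0.587 and COL4A2 by 4.63 ± 0.472. COL25A1, a transmembrane collagen of neurons, was a rod gene here, with 74.1% ± 12 of its UMIs in rod-like cells and a level 3.60 ± 0.374 above the other classes (edgeR adjusted p = 3.80e-06). COL5A3, a minor chain of the collagen V group, had 45.6% ± 12.9 of its UMIs in Müller glia-like and 40.9% ± 8.96 in rod-like cells.

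Laminins were led by Müller glia-like cells for LAMA4 (87.0% ± 13.2 of UMIs) and LAMA1 (74.7% ± 17.1), alpha chains of basement membranes. LAMA1 also had 14.5% ± 7.30 of its UMIs in cone-like cells, which were 3.21 ± 0.414 (SE) above the other classes on the log2 scale (edgeR adjusted p = 4.40e-05). LAMA3 was the exception: amacrine-like cells held 33.7% ± 12.7 and horizontal-like cells 32.2% ± 10.2 of it, although these classes together are small. Its level was 195 ± 147 CPM (counts per 1000000 UMIs of the class, mean ± SD, n = 3) in amacrine-like and 275 ± 187 CPM in horizontal-like control cells, 4.50 ± 0.337 and 5.30 ± 0.337 above the other classes. LAMB3, a beta chain looked at after the values of LAMA3 were known, was also higher in amacrine-like cells (by 4.05 ± 0.832, edgeR adjusted p = 0.00242) and in horizontal-like cells (5.46 ± 0.787, adjusted p = 2.59e-04). Few UMIs carried LAMB3 in control, 13 in amacrine-like (5.07 CPM) and 18 in horizontal-like cells (9.03 CPM).

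Among the integrins, 9 of 14 tested were higher in Müller glia-like cells. ITGB8, the beta chain that releases latent TGF-beta, had 88.0% ± 12.2 of its UMIs there and was 6.28 ± 0.609 above the other classes (edgeR adjusted p = 1.08e-06). The collagen-binding chain ITGA2 had 81.5% and the laminin-binding chain ITGA3 69.8%, while ITGB1, the beta chain that most alpha chains pair with, was spread over classes with 42.1% in Müller glia-like cells. ITGB5 (53.3% ± 17.9) and ITGA4 (62.4% ± 23.0) had their highest share in rod-like cells. ITGA8 was higher in amacrine-like cells (5.52 ± 0.46 above the others), and ITGA7 was higher in both horizontal-like (3.35 ± 0.555) and amacrine-like cells (3.34 ± 0.483). The ITGA7 values rested on 28 UMIs in horizontal-like and 50 in amacrine-like control cells.

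The laminin and fibronectin receptor chains ITGA6 and ITGA5 were vessel-type genes. Vessel-like cells held 44.6% ± 17.3 of ITGA6 and 40.7% ± 10.7 of ITGA5, from 8 to 25 barcodes per control library. In a fit that added this small class after the data had been seen, 29 of 77 genes of the set were higher in it and 2 lower, against 16.0% and 19.9% of all genes, led by COL14A1 (9.82 ± 0.419), ADAMTS9 (9.12 ± 0.743), ITGA6 (8.12 ± 0.261), ITGA1 (7.44 ± 0.28) and ITGA5 (6.39 ± 0.364). In microglia- or macrophage-like cells of the same fit 4 of the set were higher (MMP19, ADAMTS3, ITGA5 and ITGA6) and 2 lower, against 10.8% and 12.4% of all genes.

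Among the proteases, single classes held most of several genes. ADAMTS19 (92.3% ± 8.90), MMP21 (91.2% ± 10.9) and the aggrecanase ADAMTS1 (87.8%) were Müller glia genes, and ADAMTS19 showed the greatest difference among the genes named for that class, 7.20 ± 0.644 (edgeR adjusted p = 5.09e-07). Bipolar-like cells held 82.1% ± 5.54 of the aggrecanase ADAMTS5 and 76.9% ± 5.93 of ADAMTS16, with ADAMTS5 5.29 ± 0.503, ADAMTS6 4.48 ± 0.386 and ADAMTS16 4.32 ± 0.383 above the other classes. ADAMTS3, which trims the ends of procollagen, was a cone gene with 75.3% ± 13.0 of its UMIs in cone-like cells and a difference of 6.30 ± 0.464 (adjusted p = 2.52e-07). ADAMTS1 and ADAMTS5 lie next to each other in the same RefSeq annotation and were read in different classes.

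MMP2 and MMP9, the gelatinases that cut collagen IV and denatured collagen, also had different sources in control retina. MMP2 had 53.4% ± 5.70 of its UMIs in Müller glia-like, 22.1% ± 7.5 in bipolar-like and 11.6% ± 7.88 in rod-like cells. MMP9 had 52.0% ± 11.9 in bipolar-like and 39.9% in rod-like cells. Over the graft the rod-like share of MMP2 was 27.1% ± 1.59 and the Müller glia-like share 38.2% ± 7.28.

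The comparison of punches asked which of these genes differed over the graft within a class. For each class, UMIs were summed per library and tested with edgeR's quasi-likelihood test, with the experiment as a block. Rod-like cells had 17 genes of the set past an adjusted p of 0.05 among 59 tested: 5 were higher, where 10.3% of all genes tested were higher, and 12 were lower, where 9.77% were lower. The median log2 change of the 59 was -0.37 and 45 were negative, beside a median of -0.01 over all 15360 genes tested, of which 7762 were negative. By family, 7 of 21 collagens fell and none rose, 1 of 7 laminins rose and 2 fell, and 1 of 9 integrins rose and 1 fell. Among the proteases, 1 of 7 MMP genes rose and 1 fell, and 2 of 11 ADAMTS genes rose and 1 fell.

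MMP2 had the lowest p of the set in rod-like cells and was higher in all 3 experiments. Its level was 40.7, 8.40 and 13.7 CPM over the graft against 9.39, 1.15 and 3.1 CPM in control, in the order LG5, RC726 and RC724, which is kept throughout. The groups overlapped because LG5 control was above RC726 over the graft, and within each experiment the graft side was the higher. The log2 change was 2.29 ± 0.207 (SE, n = 3 per group, edgeR adjusted p = 7.47e-05).

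The reads came from many barcodes. MMP2 UMIs were found in 253, 137 and 175 rod-like barcodes over the graft and in 85, 17 and 29 in control, with at most 3 UMIs in any one of them. In these barcodes the UMI share of rod markers had a median of 1.77%, 1.43% and 1.17% over the graft, beside 1.88%, 1.61% and 1.10% in rod-like barcodes without MMP2. The share of Müller glia markers in the barcodes with MMP2 was 0.121%, 0.0104% and 0.0186% over the graft and 0.547%, 0.104% and 0.0131% in control. The experiments thus differed in direction: RC724 had its greater share on the graft side, whereas control had the greater share in RC726 and LG5. The share of bipolar markers in these barcodes is not given here, although bipolar-like cells also carried MMP2. With the estimated free RNA subtracted the MMP2 change was 2.55 (adjusted p = 0.0136). The part of RNA from other classes in the MMP2 change was not tested beyond this subtraction.

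Among the other proteases of rod-like cells, ADAMTS13, which cleaves von Willebrand factor, was 2.41, 1.35 and 3.40 CPM over the graft against 0.522, 0.541 and 0.800 CPM in control. These groups did not overlap, and the log2 change was 1.84 ± 0.377 (edgeR adjusted p = 0.00709). ADAMTS18 was at 105, 196 and 257 CPM against 50.9, 162 and 186 CPM, with overlapping groups but the graft side higher in each experiment and a change of 0.57 ± 0.132 (0.0125). ADAMTS6 fell, from 2.71, 4.33 and 4.90 CPM to 0.451, 1.82 and 2.14 CPM without overlap (-1.42 ± 0.324, adjusted p = 0.0121). MMP24, a membrane-type MMP of neurons, also fell (-1.12 ± 0.302, 0.0252), a value that is uncertain because MMP24OS lies beside it and how counting used strand was not given in the sources. MMP9 (-0.40), MMP14 (-0.07), MMP15 (0.11), ADAMTS1 (-0.36), ADAMTS4 (0.49) and ADAMTS5 (-0.13) did not pass in rod-like cells.

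The 7 collagens that fell in rod-like cells were COL2A1, COL5A3, COL22A1, COL11A1, COL27A1, COL9A1 and COL23A1. COL5A3, which both rod-like and Müller glia-like cells carried, was at 150, 99.4 and 63.1 CPM over the graft against 249, 147 and 208 CPM in control. The graft side was lower in each experiment, with only LG5 over the graft reaching the control range, and the change was -1.01 ± 0.182 (edgeR adjusted p = 0.00361). COL27A1, a fibrillar collagen, was 5.56, 41.9 and 32.2 CPM against 3.97, 68.2 and 111 CPM. It was lower over the graft in RC726 and RC724 and slightly higher in LG5 (-0.96 ± 0.271, 0.0303). Without RC724 its change was -0.38 (adjusted p = 0.435), and with DESeq2 its adjusted p was 0.461.

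The other 5 had most of their control UMIs in Müller glia-like cells. COL2A1 was 8.42, 2.23 and 1.77 CPM on the graft side of the rod-like class against 32.2, 5.28 and 3.50 CPM in control (-1.48 ± 0.251, edgeR adjusted p = 0.00249). COL9A1 was 6.31, 0.822 and 0.739 CPM against 23.9, 1.15 and 0.800 CPM, so that nearly all of its difference lay in LG5 (-1.23 ± 0.385, 0.0458; without LG5 -0.33, 0.654). COL22A1 (-1.39), COL11A1 (-0.64) and COL23A1 (-0.70) were likewise lower on the graft side in each experiment, and without LG5 neither COL11A1 (-0.44, 0.203) nor COL23A1 (-0.41, 0.275) passed. Müller glia markers in the rod-like barcodes moved the same way: they made up 0.107%, 0.0177% and 0.0214% of UMIs over the graft and 0.255%, 0.0190% and 0.0239% in control. With the estimated free RNA subtracted, 12 of the 17 genes could be tested and 3 passed, MMP2, COL5A3 (-1.07, adjusted p = 0.0446) and ADAMTS13 (1.84, 0.0470), while all 12 kept their sign. The change of COL2A1 became -4.23 (edgeR adjusted p = 0.0533). In LG5 the subtraction used different marker lists for its 2 punches, so it may have removed Müller glia RNA unevenly between them. The part of Müller glia RNA in the other changes was not tested.

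Of the laminins in rod-like cells, LAMA1 was 11, 5.23 and 2.51 CPM over the graft against 22.4, 9.54 and 4.50 CPM in control (-0.93 ± 0.194, edgeR adjusted p = 0.00748), lower on the graft side in each experiment with overlapping groups. LAMB2, a beta chain of synaptic and vessel laminins, was 6.16, 4.35 and 6.29 CPM against 10.8, 6.70 and 10.5 CPM, and these did not overlap (-0.72 ± 0.201, 0.0289). LAMA5, an alpha chain of many basement membranes, rose from 1.67, 0.203 and 0.600 CPM to 2.86, 0.940 and 1.70 CPM (1.29 ± 0.411, 0.0492). LAMC1 (-0.05), the gamma chain shared by most laminins, and LAMA4 (-0.46) did not pass.

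Of the integrins, ITGB5, whose protein pairs with the alpha-V chain and is known in retina for the uptake of outer segments, was 63.0, 240 and 281 CPM on the graft side of the rod-like class against 81.8, 306 and 560 CPM in control (-0.59 ± 0.134, edgeR adjusted p = 0.0118). It was lower over the graft in each experiment. ITGB7, a chain known from leukocytes, was 2.86, 0.646 and 3.03 CPM against 0.522, 0.541 and 1.0 CPM (1.45 ± 0.438, 0.0400), with RC726 nearly level. ITGB1 (-0.16) and ITGB8 (-0.52) did not pass.

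Rod-like calls depended on single experiments. Of the 17 genes, 11 passed without LG5, 14 without RC726 and 4 without RC724, and all 17 kept their sign without LG5. Besides COL9A1, COL11A1 and COL23A1, the calls that ended without LG5 were ADAMTS18 (0.38, adjusted p = 0.0539), LAMB2 (-0.68, 0.0577) and ITGB7 (1.08, 0.149). Without RC726, MMP24 (0.162), LAMB2 (0.0644) and LAMA5 (0.216) did not pass, and the 4 genes that passed without RC724 were MMP2, COL2A1, COL5A3 and LAMA1. The share of rod-like barcodes near the class limit was 24.5%, 9.60% and 16.8% over the graft against 5.08%, 3.95% and 6.96% in control, and with these barcodes left out 14 of the 17 genes passed, with MMP2 at 2.30, COL5A3 at -0.999 and ADAMTS13 at 1.79. ITGB7 (adjusted p = 0.0545), COL23A1 (0.0586) and LAMA5 (0.0949) did not. With DESeq2, besides COL27A1, MMP24 (adjusted p = 0.0989), COL9A1 (0.116), COL23A1 (0.0755) and ITGB7 (0.148) did not pass, and LAMA5 had no adjusted p. The plot of the 2 photoreceptor classes shows each experiment's ratio beside the fit.

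**Figure D2:**
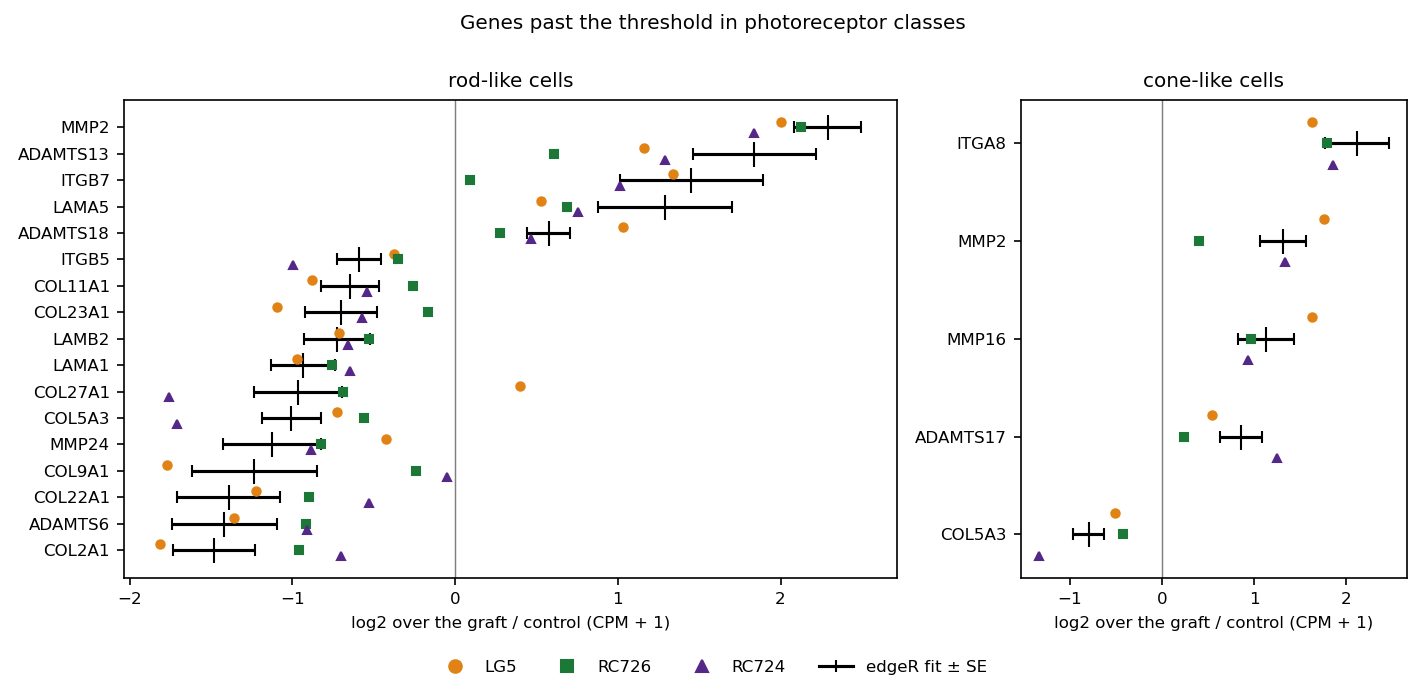
Genes of the set past an adjusted p of 0.05 in rod-like cells (left, 17 genes) and cone-like cells (right, 5 genes); coloured points are log2 ratios of CPM plus 1, over the graft to control, in each experiment, and black bars are the edgeR log2 change ± SE, a scale without the added CPM, so bars of low genes lie farther from 0 than their points. MMP2 lies right of 0 and COL5A3 left of 0 in all 3 experiments of both classes, while COL27A1 has LG5 on the other side of 0.

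In cone-like cells MMP2 rose and COL5A3 fell as well. Of 32 genes tested, 4 were higher, where 2.81% of all genes were higher, and 1 was lower, where 1.71% were lower. MMP2 was 59.4, 7.57 and 23.4 CPM over the graft against 16.9, 5.47 and 8.68 CPM in control (1.31 ± 0.247, edgeR adjusted p = 0.00435), higher in each experiment and least so in RC726. COL5A3 was 127, 97.8 and 50.1 CPM against 182, 131 and 128 CPM, with no overlap (-0.80 ± 0.164, 0.00851).

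The other 3 genes that rose in cone-like cells were ITGA8, MMP16 and ADAMTS17. ITGA8, a receptor chain for nephronectin, was 3.33, 10.5 and 22.4 CPM over the graft against 0.402, 2.30 and 5.47 CPM in control (2.12 ± 0.347, edgeR adjusted p = 0.00140), although 13 of its 36 UMIs in RC726 over the graft came from 1 barcode. MMP16, a membrane-type MMP, was 3.33, 3.78 and 45.1 CPM against 0.402, 1.44 and 23.2 CPM (1.13 ± 0.306, 0.0438), with RC724 far above the other experiments on both sides. ADAMTS17 was 2.22, 17.2 and 89.0 CPM against 1.21, 14.4 and 37.0 CPM (0.86 ± 0.232, 0.0439). Without LG5 only ITGA8 passed in cone-like cells, with MMP2 at an adjusted p of 0.183 and COL5A3 at 0.0641. Without RC724, MMP2 passed (0.00111), while COL5A3 (-0.53, 0.105) and ADAMTS17 (0.29, 0.901) did not. MMP16 did not pass without RC726 (0.0580), and with DESeq2 neither MMP16 (0.233) nor ADAMTS17 (0.461) passed. ITGA8 had no adjusted p with DESeq2 (log2 change 2.20). Neither ITGA8 nor MMP16 had enough counts to be tested without RC724.

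**Figure D3:**
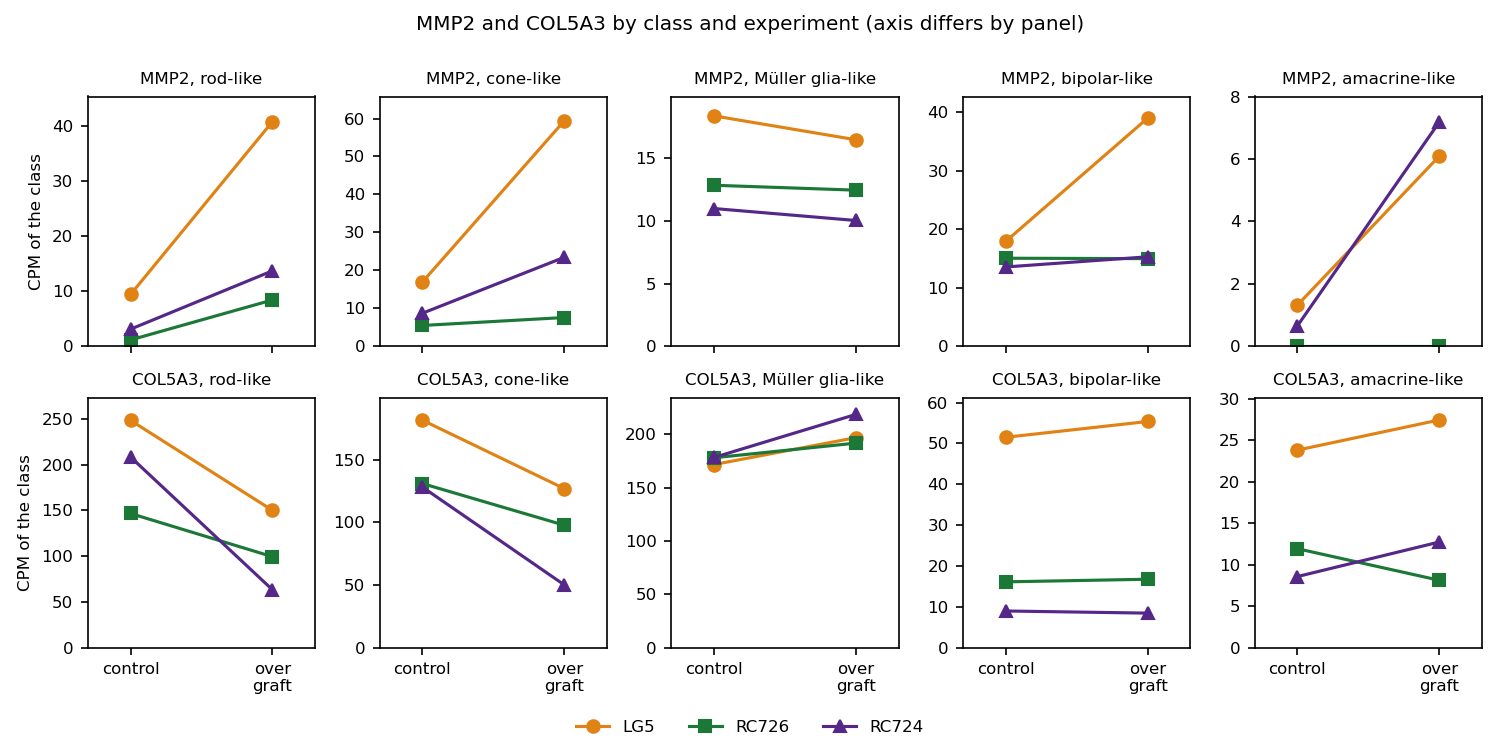
CPM of MMP2 (top) and COL5A3 (bottom) in 5 cell classes, control on the left and over the graft on the right of each panel, with a line for each of the 3 experiments; the vertical axis differs between panels and starts at 0. In rod-like and cone-like cells every MMP2 line goes up and every COL5A3 line goes down, whereas the lines of Müller glia-like cells are nearly level for MMP2 (16.5, 12.5 and 10.0 CPM above the graft, 18.4, 12.8 and 11 CPM without it).

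In Müller glia-like cells, the main source of the set, no gene of the 82 tested passed an adjusted p of 0.05 in edgeR, where 0.365% of all genes passed. At an unadjusted p under 0.05 there were 12 of the 82, beside 2429 of all 16999 genes tested. DESeq2 called 3, and its count over all genes is not given here. The median log2 change of the 82 was 0.02, beside 0.01 over all genes. The precision was uneven: for COL2A1 (-0.05 ± 0.16), LAMA4 (-0.06 ± 0.121), LAMA1 (-0.16 ± 0.119), COL9A1 (-0.11 ± 0.115), MMP2 (-0.15 ± 0.13) and ITGB1 (-0.27 ± 0.116) the standard error was small, and for ITGB3 (1.98 ± 0.509) it was not.

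The genes with the lowest p in Müller glia-like cells, chosen after their values were seen, were MMP21, COL22A1 and ITGA6. MMP21 was 2.62, 6.61 and 5.43 CPM over the graft against 5.04, 14.0 and 15.9 CPM in control, lower in each experiment (-1.27 ± 0.194, edgeR adjusted p = 0.0592). COL22A1, a collagen of tissue junctions, was 22.9, 64.1 and 48.2 CPM against 34.1, 94.7 and 76.2 CPM (-0.64 ± 0.112, 0.0736). ITGA6 was 18.0, 14.2 and 20.3 CPM against 12.9, 7.99 and 12.6 CPM with no overlap (0.62 ± 0.133, 0.114).

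Of 15 integrins tested in Müller glia-like cells, 13 had a positive change, with a median of 0.41 on the log2 scale, and none passed. Over all 16999 genes tested there, 8824 had a positive change. ADAMTS1 was 546, 362 and 526 CPM over the graft against 323, 224 and 541 CPM (0.43 ± 0.195, edgeR adjusted p = 0.375), higher in LG5 and RC726 and level in RC724. COL4A2 (-0.25), LAMB1 (-0.18), LAMB2 (-0.15), MMP14 (-0.07), COL4A1 (0.21), COL18A1 (0.19), ITGB8 (0.21), LAMC1 (0.30) and COL4A3 (0.35) did not pass. MMP9, ITGB2 and LAMC3 had too few counts to be tested there.

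Whether the change over the graft differed between the Müller glia-like and the rod-like class was tested directly in 1 fit of both classes. The difference passed for 10 of 82 genes, against 6.52% of all genes tested in either direction. For MMP2 the Müller glia-like change was lower than the rod-like change by 2.35 on the log2 scale (-2.35 ± 0.218, edgeR adjusted p = 5.12e-05). For 9 genes it was higher: COL2A1 (1.45 ± 0.192, 8.13e-04), COL5A3 (1.25 ± 0.217, 0.00525), COL1A2 (1.53 ± 0.287, 0.00811), LAMA1, COL18A1, COL9A1, COL27A1, MMP24 and ITGB5. COL1A2, a chain of collagen I, passed in neither class alone: in Müller glia-like cells it was 42.4, 9.5 and 30.6 CPM over the graft against 9.66, 5.56 and 20.2 CPM (1.13 ± 0.31, 0.189). With the estimated free RNA subtracted none of the 82 passed, and MMP2 had an adjusted p of 0.0902. Without LG5, COL9A1 (0.786) and COL18A1 (0.443) did not pass.

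**Figure D4:**
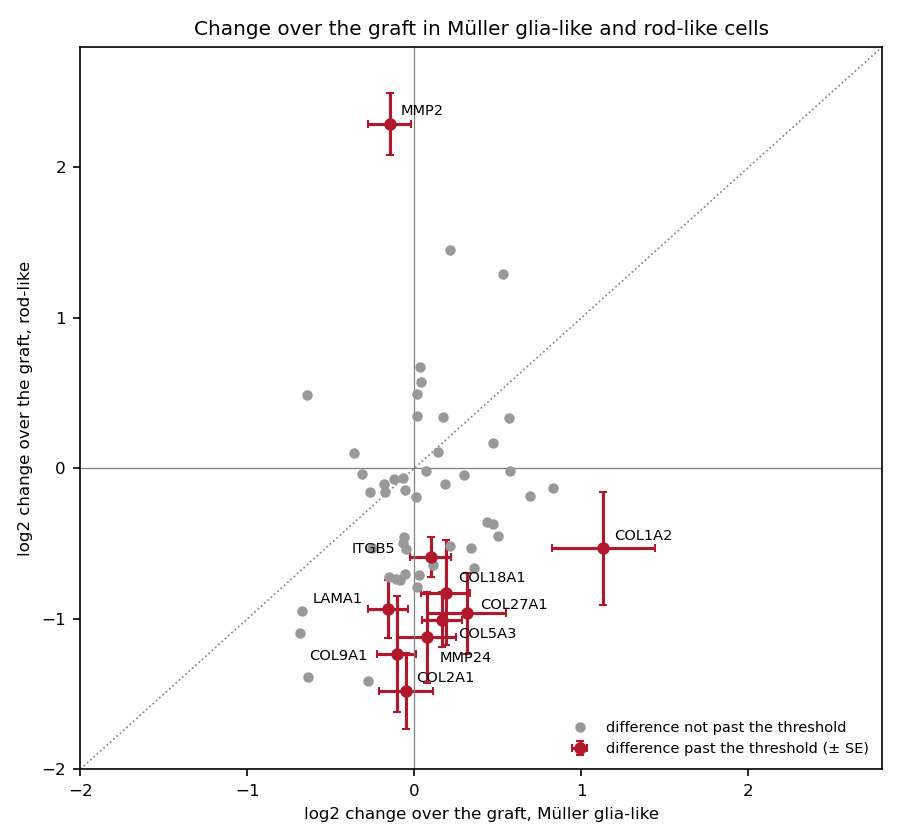
Log2 change over the graft in Müller glia-like cells (horizontal axis) and rod-like cells (vertical axis) for genes of the set tested in both classes; the dotted line marks equal change. The 10 red genes, with bars of ± SE, have a difference past an adjusted p of 0.05, and MMP2 lies far above the line at -0.15 and 2.29 while COL2A1 lies below it at -0.05 and -1.48.

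In the inner neurons no gene of the set passed in edgeR: 0 of 45 in bipolar-like cells (0.297% of all genes passed), 0 of 34 in amacrine-like cells (0.834%) and 0 of 13 in horizontal-like cells (0.0598%). At an unadjusted p under 0.05 there were 6, 5 and 1, beside 1774 of 13458, 839 of 11149 and 491 of 8356 among all genes tested. DESeq2 called none of the set in these 3 classes. MMP2 in bipolar-like cells was 39.0, 15.0 and 15.3 CPM over the graft against 17.9, 15.1 and 13.6 CPM in control, so that LG5 alone differed clearly (0.41 ± 0.204, adjusted p = 0.424). Amacrine-like cells had 8, 0 and 13 MMP2 UMIs over the graft and 1, 0 and 1 in control. COL5A3 was level in bipolar-like cells (-0.01 ± 0.151), where it was 55.4, 16.7 and 8.43 CPM against 51.5, 16.1 and 8.95 CPM. ADAMTS18 in bipolar-like cells (0.73 ± 0.233, adjusted p = 0.221) and ADAMTS3 in amacrine-like cells (-1.12 ± 0.292, 0.0648), chosen after their values were seen, came nearest to the threshold together with COL25A1 in horizontal-like cells (1.88 ± 0.466, 0.230).

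Over the whole punch, which sums all kept barcodes, 5 of 105 genes rose, against 1.90% of all genes, and none fell, against 1.29%. They were COL3A1, COL12A1, LAMA2, ITGA5 and ITGA1. In such a sum a change in the number of cells of a type and a change of RNA per cell cannot be told apart. COL3A1, a fibrillar collagen of vessel walls and connective tissue, was at 12, 78 and 101 UMIs over the graft and 2, 3 and 20 UMIs in control, or 0.291, 1.60 and 1.77 CPM against 0.0644, 0.0829 and 0.418 CPM of the punch. It was higher in each experiment (2.71 ± 0.467, edgeR adjusted p = 0.0371).

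LAMA2, the alpha chain of mural and muscle basement membranes, was 0.170, 5.79 and 10.7 CPM over the graft against 0.129, 0.802 and 3.56 CPM in control, with LG5 level on both sides (1.99 ± 0.376, edgeR adjusted p = 0.0453). COL12A1, which decorates collagen I fibrils, was 0.364, 1.43 and 5.85 CPM against 0.193, 0.221 and 1.80 CPM (1.85 ± 0.348, 0.0453). The fibronectin receptor chain ITGA5 was 6.63, 7.20 and 7.32 CPM against 2.67, 2.02 and 4.46 CPM and did not overlap (1.27 ± 0.24, 0.0453). The collagen receptor chain ITGA1 was 16.7, 32.2 and 58.8 CPM against 7.24, 15.5 and 44.7 CPM, higher in each experiment with overlapping groups (0.88 ± 0.168, 0.0461). Calls in the punch changed with the experiments kept: COL12A1 and LAMA2 passed without LG5 (both 0.0460), none of the 5 without RC726, and COL3A1, ITGA5 and ITGA1 without RC724. MMP2 was 25.7, 10.2 and 12.1 CPM of the punch against 14.0, 6.91 and 8.87 CPM and did not pass (0.64 ± 0.135, 0.0564).

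The vessel-like share of UMIs moved with these genes. It was 0.685%, 2.52% and 2.57% over the graft and 0.356%, 0.316% and 1.32% in control, from 42, 27 and 41 barcodes against 16, 8 and 25. Most COL3A1 UMIs lay in these few barcodes, 12, 73 and 100 over the graft and 2, 1 and 19 in control. Of LAMA2, 0, 230 and 561 UMIs lay there over the graft and 1, 0 and 127 in control, of which 64 of the 127 came from 1 barcode.

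**Figure D5:**
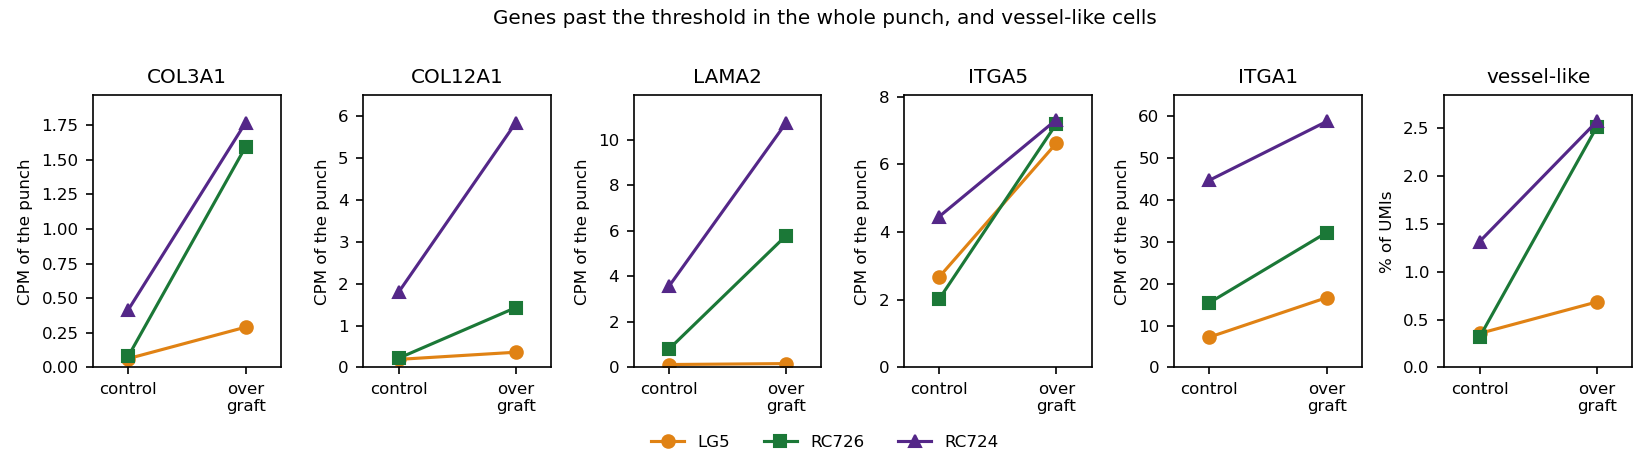
CPM of the whole punch for the 5 genes that passed an adjusted p of 0.05, and in the last panel the share of UMIs in vessel-like barcodes (%), in control and over the graft with a line per experiment; each vertical axis starts at 0 and differs between panels. All lines go up, including that of the vessel-like share, which is 0.356%, 0.316% and 1.32% in control and 0.685%, 2.52% and 2.57% over the graft.

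The test within vessel-like cells was added after the data had been seen, because the class is below 20 barcodes in some libraries. None of 29 genes passed in edgeR, where 0.221% of all genes passed. Of the 29, 8 had an unadjusted p under 0.05, beside 562 of all 6327 genes tested. ITGA5 (-0.01 ± 0.252) and ITGA1 (-0.31 ± 0.236), scaled to the UMIs of the class, had fitted changes near or below 0. Collagens leaned the other way, with 10 of 11 positive and a median of 0.74, beside 3328 of all 6327 genes positive and a median of 0.03. COL3A1 was 42.5, 59.4 and 68.1 CPM over the graft against 18.1, 8.74 and 30.2 CPM in control without overlap (1.40 ± 0.403, edgeR adjusted p = 0.271). COL4A1 was 259, 295 and 278 CPM against 63.3, 131 and 167 CPM, again without overlap (1.16 ± 0.296, 0.178). The aggrecanase ADAMTS4 was 322, 221 and 267 CPM against 145, 8.74 and 127 CPM (1.55 ± 0.358, 0.120).

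Microglia- or macrophage-like cells numbered 540, 38 and 21 barcodes over the graft and 208, 23 and 9 in control. None of 7 genes of the set passed in an added edgeR fit, where 0.140% of all genes passed. None of the 7 had an unadjusted p under 0.05, beside 127 of all 3580 genes tested. MMP12, the macrophage elastase, was too low to be tested and had 23, 6 and 33 UMIs in this class over the graft and 1, 0 and 0 in control. These UMIs were held by few barcodes: 18, 1 and 3 over the graft, with 26 of the 33 RC724 UMIs in 1 barcode. In RC724 control the class had 8784 UMIs, so a count of 0 there allows up to 342 CPM (3 UMIs, counting error only), above the 145 CPM over the graft in RC724. ITGB2, the leukocyte beta chain, was 81.7, 53.7 and 96.6 CPM over the graft against 96.5, 83.9 and 0 CPM in control.

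Partner genes of the pathway, read from lists that were written with earlier results known, moved in few classes. In rod-like cells 5 of 10 protease inhibitors were tested, of which TIMP1 rose and TIMP3 and RECK fell. TIMP1, the inhibitor of MMP enzymes, was 259, 12.3 and 24.7 CPM over the graft against 49.5, 3.25 and 13.7 CPM in control, higher in each experiment and greatest in LG5 (1.75 ± 0.231, edgeR adjusted p = 6.31e-04). TIMP3, an inhibitor bound to matrix, changed by -1.54 ± 0.356 (0.0127) and RECK, a membrane inhibitor of MMP enzymes, by -0.42 ± 0.11 (0.0216). In Müller glia-like cells TIMP1 was 6511, 527 and 1159 CPM against 341, 121 and 449 CPM, which did not overlap and did not pass (2.51 ± 0.543, 0.119). RNA from other cells was estimated at 17.6%, 3.47% and 3.02% of rod-like UMIs over the graft and 14.3%, 6.01% and 3.89% in control. The part of Müller glia RNA in the rod-like TIMP1 change was not tested.

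Of 14 tested genes of collagen synthesis in rod-like cells, CRTAP (0.60), PPIB (0.39) and PCOLCE (1.38) rose and none fell, beside 10.3% of all genes higher and 9.77% lower in that class. Among the matrix glycoproteins the fibrillin FBN2 fell (-2.80). Of 8 further receptors for laminin and collagen, SDC4 rose (0.58) and CD44 (-0.92) and SDC3 (-0.52) fell, and of 11 tested adhesion genes such as ITGAV and talins none passed. Over the whole punch, FN1, the fibronectin that ITGA5 binds, rose by 2.89 on the log2 scale (edgeR adjusted p = 0.0406).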

How the data were processed

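The authors deposited 1 UMI count matrix per library, whole-number counts of molecules for every gene in every barcode, from Cell Ranger 6.0.2, 7.0.0 or 7.1.0, per the submitters' processing notes or the file headers; the deposited counts sum to 34768162 to 60755006 per library. The genome build, the treatment of introns, strand and human reads were not given in the sources used here. Versions differed between experiments, and in RC726 also between its 2 punches (7.1.0 over the graft, 7.0.0 in control). Deposited barcodes held at least 500 UMIs. Kept barcodes had at least 300 genes and at most 20% mitochondrial UMIs; Scrublet's own threshold marked at most 0.0351% of barcodes, so the top 6% by doublet score was removed per library, a choice made after seeing the data.

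Barcodes were assigned by a log-likelihood over 134 marker genes of 11 classes, with a margin of 3 over the next class and at least 2 markers. The astrocyte and fibroblast lists were left out because Müller glia-like cells carried most of their genes, though not DCN and PI16. Lists for retinal pigment epithelium, oligodendrocytes and B cells were also left out. Counts were summed per class and library, and a class was tested where every library held at least 20 barcodes. edgeR 4.0.16 (quasi-likelihood, filterByExpr, TMM) was fitted on all genes with Benjamini-Hochberg adjustment at 0.05; log2 ratios per experiment added 1 CPM. Both punches of an experiment come from the same retina per the series design, and same-experiment libraries deviated together (correlations 0.691 to 0.953), so the experiment was a block. The fits were tested on simulated sums. A log2 change of 1 was found there for 81.25% of changed genes in rod-like and 56.8% in Müller glia-like cells. For the difference between these classes it was found for 48%. Of the calls, 10.3%, 10.9% and 13.8% were false, in the same order.

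The members and lists were chosen with earlier results of these data known. Genes are named where they passed in a class (at most 12 per direction), from a list of 26 members read in Müller glia-like, rod-like and, where tested, microglia- and vessel-like cells, and as the 5 highest of a class in control with at least 20 CPM; list genes are named where they passed, at most 4 per list and class. Others are said to be chosen after their values were seen. Alternatives were DESeq2 1.42.0 (also its size factors in edgeR), no low-count filter, no block, stricter barcodes (500 genes, 10% mitochondrial), a margin of 10, doublets kept, free RNA subtracted and each experiment left out; the fits with vessel-like and microglia- or macrophage-like cells were added after seeing the data. All 120 genes matched RefSeq (UU_Cfam_GSD_1.0) by name; no sequence is shown. A few single-gene results are not reported here.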

Additional observations from a re-analysis of the deposited data

Results flagged for a closer look

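For 10 genes of the set the change over the graft differed between the Müller glia-like and the rod-like class by a test of the difference itself (edgeR, adjusted over all genes tested). MMP2 had a Müller glia-like change below the rod-like one (-2.35 ± 0.218 on the log2 scale). The Müller glia-like change was above the rod-like one for COL1A2 (1.53 ± 0.287), COL2A1 (1.45 ± 0.192), COL9A1 (1.31 ± 0.314), COL5A3 (1.25 ± 0.217), COL27A1 (1.22 ± 0.31), MMP24 (1.21 ± 0.307), COL18A1 (1.21 ± 0.288), LAMA1 (0.86 ± 0.186) and ITGB5 (0.76 ± 0.193). Leaving out RC724 left 5 of the 10 past the threshold, and leaving out RC726 left 9. The part of free RNA in these differences was not tested beyond the subtraction.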

How the results depend on the processing

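Without the replicate block, which ignores that both punches come from the same retina, the count of genes past the threshold was 0 in each of the 6 classes and in the whole punch, and 0 for the difference between the Müller glia-like and the rod-like class. With DESeq2 the count was 11 in rod-like, 2 in cone-like and 3 in Müller glia-like cells and 18 in the whole punch. With free RNA subtracted it was 3 in rod-like and 3 in cone-like cells and 0 for the difference between classes; this was not run on the whole punch. Without a filter on low counts it was 9 in Müller glia-like, 3 in bipolar-like, 1 in amacrine-like and 6 in horizontal-like cells and 19 in the punch. Stricter barcodes gave 3 in cone-like, 1 in Müller glia-like and 1 in amacrine-like cells, and keeping high doublet scores gave 1 each in Müller glia-like, amacrine-like and horizontal-like cells. Leaving out 1 experiment gave 4 (without RC724) to 18 genes in rod-like, 1 (without LG5) to 5 in cone-like, 0 to 3 in Müller glia-like, 0 to 3 in bipolar-like, 0 to 1 in amacrine-like, 0 to 3 in horizontal-like and 0 to 2 in vessel-like cells. It gave 3 to 7 in the punch and 8 to 18 for the difference between classes. In control, leaving out 1 library gave 5 to 11 genes higher in cone-like, 14 to 29 in amacrine-like and 5 to 11 in horizontal-like cells.

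The reversed signs were of 4 genes in Müller glia-like cells, none past the threshold. COL2A1 was 0.0341 with free RNA subtracted and -0.26 to 0.14 over the left-out experiments, the latter without LG5. LAMA4 was 0.0234 with free RNA subtracted, and ADAMTS9 was -0.60 to 0.20 over the left-out experiments, the latter without LG5. ADAMTS4 (0.01) was -0.18 with DESeq2, -0.00926 with median-of-ratios size factors, -0.00641 with stricter barcodes, -0.41 with free RNA subtracted, -0.0285 with high doublet scores kept and -0.42 (without RC724) to 0.27 over the left-out experiments. The cause was not tested for any of these. In rod-like cells without RC724, 12 of 16 genes did not pass, with unchanged direction. Depth limits the rod-like genes under 5 CPM most, since a few UMIs per library carry them, and dissociation losses of vessel and immune cells were not measured.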
